A study of Mus musculus with 6 samples.

Results

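The 9 genes described here make itaconate and nitric oxide or move and use arginine in macrophages: Irg1 (the count table's symbol for Acod1), Nos2, Gch1, Slc7a2, Arg1, Arg2, Ass1, Asl and Odc1. They were chosen by symbol, with earlier results of these data known, and are 9 of the 23413 genes in the deposited count table. All 9 were among the 10724 genes with enough counts to be tested. The RNA came from fresh alveolar macrophages, the resident macrophages of the air spaces, taken from the lung lavage of wild-type (WT) mice, with treatments given in culture for 4 h. Of 6 bulk RNA-seq libraries, 2 were from cells given lipopolysaccharide (LPS, 100 ng/mL) together with vitamin D3 (VD3, 50 nM), 2 from cells given LPS alone and 2 from cells labelled control, for which the labels give no time in culture. All 3 groups share the WT genotype and the cell source; the labels give no strain, sex or age. They also do not say whether same-group libraries are from different animals or cultures. The p-values are thus set against a spread that may be technical.

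Irg1 encodes aconitate decarboxylase, which diverts cis-aconitate from the Krebs cycle to itaconate, a metabolite that accumulates in activated macrophages and restrains inflammation. Nos2 is the inducible nitric oxide synthase: it splits arginine into nitric oxide and citrulline and needs tetrahydrobiopterin, whose synthesis starts with GTP cyclohydrolase, the product of Gch1. The arginases compete for the same arginine and yield ornithine, which ornithine decarboxylase (Odc1) turns into the polyamine putrescine, while argininosuccinate synthase (Ass1) and argininosuccinate lyase (Asl) rebuild arginine from citrulline. Mouse macrophages take up arginine largely through the cationic amino acid carrier Slc7a2.

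Irg1 and Gch1 are the called members whose promoters the RefSeq table holds, so their sequences are shown beside the values that follow. Each runs 5′ to 3′ on the gene's own strand from 250 bases before to 50 bases after the RefSeq start (build GRCm38.p6, which is mm10), at chr14:103046762-103047061 on the plus strand for Irg1 and at chr14:47189364-47189663 on the minus strand for Gch1. Capitals mark matches to an NF-kB type motif (GGGA, any 4 bases, CC) and to a TATA box (TATAAA).
Irg1: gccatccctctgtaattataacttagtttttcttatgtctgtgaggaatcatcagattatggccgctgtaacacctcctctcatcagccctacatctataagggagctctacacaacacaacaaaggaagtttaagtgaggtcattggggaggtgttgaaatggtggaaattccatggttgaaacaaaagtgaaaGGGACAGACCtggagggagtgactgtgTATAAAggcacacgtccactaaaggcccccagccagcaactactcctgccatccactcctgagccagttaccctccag
Gch1: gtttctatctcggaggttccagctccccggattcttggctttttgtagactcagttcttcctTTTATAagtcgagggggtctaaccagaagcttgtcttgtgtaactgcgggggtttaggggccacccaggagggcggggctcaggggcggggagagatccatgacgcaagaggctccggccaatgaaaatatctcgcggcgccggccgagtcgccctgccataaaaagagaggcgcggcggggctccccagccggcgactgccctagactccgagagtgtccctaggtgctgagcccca
In the Irg1 window the NF-kB type motif lay at bases -55 to -46 and the TATAAA match at bases -28 to -23, both on the gene's strand and without overlap. These positions count from the RefSeq start. The gene span given below comes from another annotation and begins at chr14:103046977, before the RefSeq start. By that span the TATAAA match lies inside the gene and the NF-kB type motif before it. In the Gch1 window the TATAAA match was on the opposite strand, at bases -188 to -183, and no NF-kB type match was found. Searched on both strands in 32851 RefSeq promoters of the same length, the NF-kB type motif was present in 20.7% and TATAAA in 13.6%. The vitamin D receptor type repeat (GTTCA, any 4 bases, GTTCA), present in 0.0517% of promoters, matched in neither window, nor in those of Ass1 and Odc1, the other members with a RefSeq promoter. The Ass1 window held the NF-kB type motif at bases -152 to -143 and an E-box (CACGTG, in 7.15% of promoters) at bases -36 to -31. The Ass1 span given below also begins before the RefSeq start, and the E-box lies inside it. The Odc1 window matched none of the 9 motifs searched. The 4 windows held no match to the others of these 9: an interferon response motif (GAAA, any 2 bases, GAAA, in 3.44% of promoters), a STAT motif (TTC, any 3 bases, GAA, in 8.3%), an AP-1 motif (TGANTCA, in 7.81%), a cyclic AMP response motif (TGAC then GTCA, in 1.79%) and a C/EBP motif (TTGC, any 2 bases, AA, in 10.8%). These matches describe letters only.

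The libraries held between 5022314 and 5465223 counted reads. Libraries of a group correlated across genes with r of 0.981 in LPS + VD3, 0.969 in LPS and 0.991 in control. Their spread, as chi-square per degree of freedom against counting error, was 9.64 in LPS + VD3, 25.3 in LPS and 2.45 in control. The title of LPS 1 is numbered apart from those of all other libraries, and the labels do not say why. The log2 difference between the 2 LPS libraries moved with transcript GC content (Spearman's rho across genes 0.655, against 0.18 in LPS + VD3 and 0.235 in control); the part of GC content in the member results is measured only through the fit with GC offsets. The macrophage label was checked on 10 measured alveolar macrophage markers, Marco, Itgax, Car4 and Mrc1 among them. Levels are given as counts-per-million (CPM). The summed level of these markers was 10450 to 12173 CPM in LPS + VD3, 9701 to 10413 in LPS and 7261 to 7413 in control, and none was at 0. The markers did not move together: in all 4 stimulated libraries 4 of the 10 (Marco, Car4, Itgax and Fabp4) were above both control libraries and 6 (Siglec5, Pparg, Ear1, Ear2, Krt79 and Mrc1) below both. Siglec5, an eosinophil and alveolar macrophage lectin, had 96.1 and 100 CPM in LPS + VD3, 91.7 and 83.1 in LPS and 213 and 207 in control, while Marco, a scavenger receptor, had 3349 and 3912, 3530 and 3470, and 1433 and 1440 CPM in the same groups. The sum of the monocyte and interstitial macrophage markers was 185 to 215 CPM in LPS + VD3, 275 to 370 in LPS and 20.4 to 20.6 in control. Most of that sum was Vcan, a proteoglycan gene, at 181 and 204 CPM in LPS + VD3, 267 and 366 in LPS and 3.43 and 3.69 in control. Of 7 measured neutrophil markers, S100a9, Mpo, Elane and Retnlg were at 0 throughout, with a sum of 29.1 to 35.6 CPM in LPS + VD3, 22 to 27.5 in LPS and 17.5 to 19.7 in control. The sum of 8 lung epithelial markers was 40.6 to 53.3 CPM in LPS + VD3, 34.3 to 38.8 in LPS and 223 to 240 in control. Cdh1 made up most of it and Sftpc was at 0. Sums over lymphocyte, endothelial or stromal, and eosinophil markers were under 40 CPM in every library. The part of other cells in the results was not tested, and in bulk RNA fewer cells of a type and less RNA per cell cannot be told apart.

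After 4 h of LPS, 5 members were higher than in control cells, namely Irg1, Nos2, Arg2, Slc7a2 and Gch1, and Arg1 was lower. The same 6 were called in the same directions in LPS + VD3 cells against control cells. Adding VD3 to LPS changed 1 member by the test, Irg1, which was higher still. If same-numbered libraries are treated as pairs (replicate block), 4 members were called there: Irg1, Odc1, Gch1 and Ass1. Changes were called at a Benjamini-Hochberg adjusted p under 0.05 from edgeR's quasi-likelihood test, adjusted over all 10724 genes. By that rule 3.83% of the tested genes were called in LPS + VD3 against LPS (2.25% higher and 1.59% lower), where 1 of 9 members was called, higher. In LPS against control 31.8% of genes were called (15.7% higher and 16.2% lower), where 5 of 9 members were higher and 1 was lower. In LPS + VD3 against control 35% were called (17.7% higher and 17.3% lower), again with 5 members higher and 1 lower. The median log2 fold change of the 9 members was -0.02 in LPS + VD3 against LPS, where it was -0.00 over all tested genes. It was 2.14 in LPS against control and 1.35 in LPS + VD3 against control, where all tested genes had medians of 0.01 each. Both comparisons with control share the control libraries, and LPS + VD3 against LPS shares the LPS libraries with one and the LPS + VD3 libraries with the other.

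**Figure D1:**
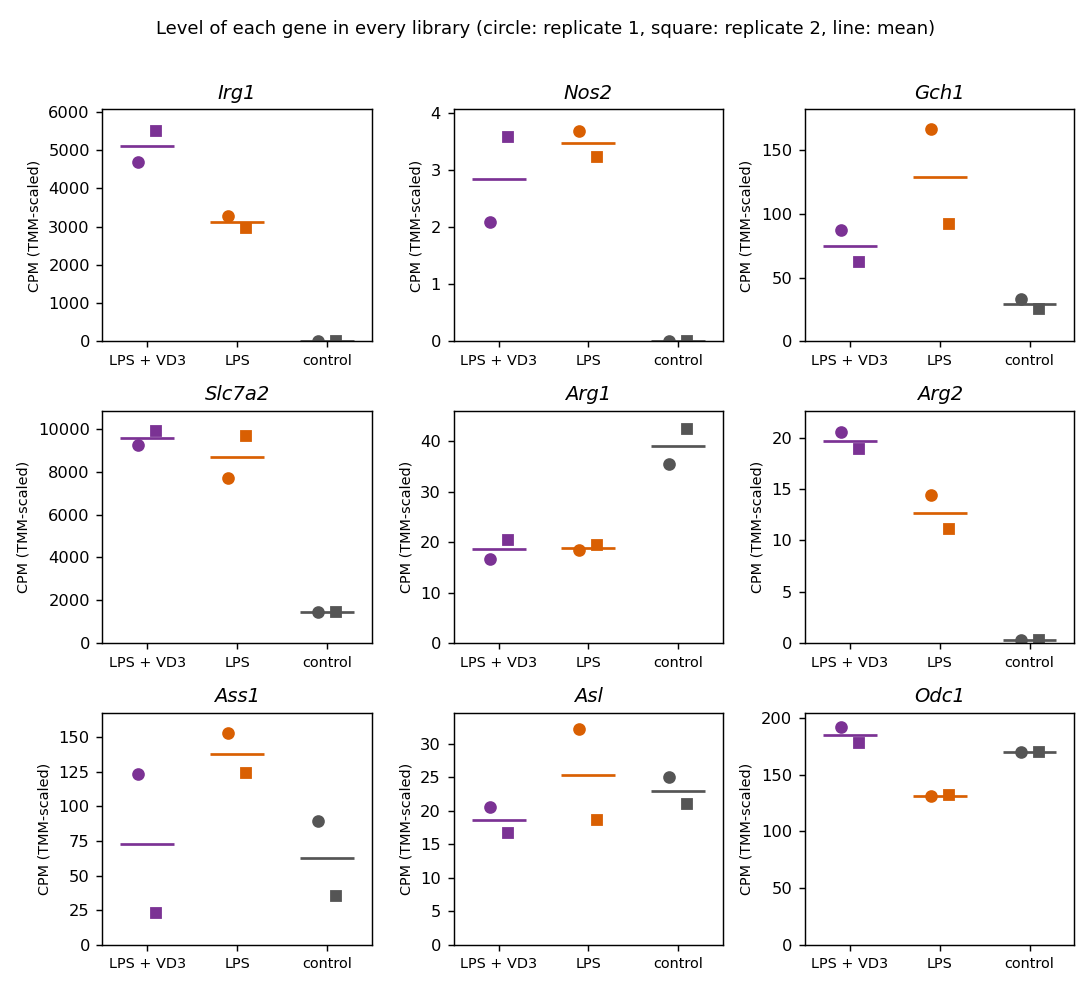
Level of each of the 9 genes in TMM-scaled CPM, 1 panel a gene with its own axis from 0, with LPS + VD3 left of LPS and control; circles are replicate 1, squares replicate 2 and lines the group means. Irg1 lies at 4694 and 5503 in LPS + VD3 and at 2.57 and 2.56 in control, and the 2 LPS + VD3 libraries of Ass1 lie apart at 123 and 22.9.

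Irg1, the itaconate enzyme, had the largest fold change of the 9 genes in both comparisons with control. Its level was 4694 and 5503 CPM in the LPS + VD3 libraries, 3269 and 2975 CPM in the LPS libraries and 2.57 and 2.56 CPM in the control libraries. The 3 groups did not overlap, and the control values came from 15 and 16 counts. In LPS against control Irg1 rose by 10.23 ± 0.24 (log2 fold change ± SE, adjusted p = 4.47e-09). With VD3 added it rose a further 0.71 ± 0.15 against LPS alone, a 1.63-fold difference (95% interval 0.37 to 1.04 on the log2 scale, adjusted p = 0.0305). The size of this VD3 difference stayed between 0.58 and 0.82 over 14 alternative settings, but its adjusted p ranged from 0.0039 to 0.259 and was under the threshold in 8 of them. The call was lost without LPS + VD3 1 (0.0845), LPS + VD3 2 (0.259), control 1 (0.115) or control 2 (0.115), with a fit of the 4 compared libraries alone (0.118) and without a filter on low counts (0.0708).

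Irg1 was also one of the more abundant transcripts of the stimulated cells. It took 0.431% and 0.506% of all counts in the LPS + VD3 libraries and 0.309% and 0.278% in the LPS libraries. Scaled to exon length, the gene ranked 17th and 15th of 10650 genes in LPS + VD3, 31st and 32nd in LPS, and 9448th and 9445th in control. Irg1 spans chr14:103046977-103056573 on the plus strand of mm10.

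The enzymes around itaconate are counted beside the share of all tested genes called. That share was 3.83% in LPS + VD3 against LPS, 31.8% in LPS against control and 35% in LPS + VD3 against control. Of 26 other tested genes of the Krebs cycle and its branches, 1 was called, higher, in LPS + VD3 against LPS, 1 was higher and 2 lower in LPS against control, and 1 was higher and 4 lower in LPS + VD3 against control (median log2 fold change -0.13, -0.16 and -0.29). Among the last 4 were Acly, which splits exported citrate (-0.60, adjusted p = 0.0073), Idh3a and Suclg2, and the higher one was Dld (0.60, adjusted p = 0.0449). Idh1, the cytosolic isocitrate dehydrogenase, had 392 and 337 CPM in LPS + VD3, 150 and 157 in LPS and 324 and 321 in control. It fell in LPS against control (-1.07 ± 0.15, adjusted p = 0.000333) and rose in LPS + VD3 against LPS (1.25 ± 0.15, adjusted p = 0.00162), calls that held in all 14 alternatives. In LPS + VD3 against control its log2 fold change was 0.18 ± 0.14 (adjusted p = 0.369). Citrate synthase (Cs) rose by 0.41 ± 0.14 and Suclg2, a succinyl-CoA ligase subunit, changed by -0.65 ± 0.19 in LPS against control (adjusted p = 0.0422 and 0.0245), and these calls were lost in 6 and 3 of 14 alternatives.

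Nos2 was induced but scarce. It had 10 and 18 counts (2.09 and 3.58 CPM) in LPS + VD3, 18 and 16 counts (3.69 and 3.24 CPM) in LPS, and 0 counts in both control libraries. Against the limit of 3 counts that 0 over the control group allows, Nos2 was at least 11.5-fold higher in LPS + VD3 (adjusted p = 0.00122) and at least 13.9-fold higher in LPS (adjusted p = 0.000761). The values with and without VD3 overlapped, with a log2 difference of -0.28 ± 0.43 (95% interval -1.23 to 0.67, adjusted p = 0.727). That interval spans falls and rises, and a difference within it was not detectable at this depth. Nos2 spans chr11:78920787-78960254 on the plus strand. Per kilobase of exon its level was between 0.475 and 0.837 CPM in the stimulated libraries, the lowest of the 9 genes there. The neuronal synthase Nos1 had no counts and the endothelial synthase Nos3 had 1 count in control 1. Of 3 other tested genes of nitric oxide handling, Adh5, Nosip and Nostrin, 0 were called in any comparison by edgeR or DESeq2. At an unadjusted p under 0.05 there were 0 in LPS + VD3 against LPS, 1 in LPS against control and 2 in LPS + VD3 against control. Over all tested genes edgeR called 3.83%, 31.8% and 35% in these comparisons, and 3 genes are too few to set against those shares.

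Gch1, which starts tetrahydrobiopterin synthesis, was at 87.3 and 61.9 CPM in LPS + VD3, 166 and 91.6 CPM in LPS and 33.1 and 25.5 CPM in control. The groups did not overlap, but the LPS pair was spread widely. Gch1 spans chr14:47153895-47189413 on the minus strand. Gch1 rose 4.41-fold in LPS against control (2.14 ± 0.29, adjusted p = 0.000321) and 2.55-fold in LPS + VD3 against control (1.35 ± 0.29, adjusted p = 0.0052), the second call being lost without LPS + VD3 1 (adjusted p = 0.073, range 2.75e-05 to 0.073 over 14 alternatives). Between LPS + VD3 and LPS the log2 difference was -0.79 ± 0.28 (95% interval -1.41 to -0.17, adjusted p = 0.146), which did not pass. That value turned on the LPS pair: without LPS 1 it was -0.30 (adjusted p = 0.514) and without LPS 2 it was -1.16 (adjusted p = 0.00079). Over the 14 alternatives the adjusted p ranged from 0.00079 to 0.633, the highest being without LPS + VD3 2. Of 5 other tested tetrahydrobiopterin genes, 0 were called in LPS + VD3 against LPS (0 also by DESeq2 or at an unadjusted p under 0.05 in edgeR). The share over all tested genes was 3.83% there. Pts, the next enzyme after Gch1, was not called in LPS against control (-0.60, adjusted p = 0.0541).

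**Figure D2:**
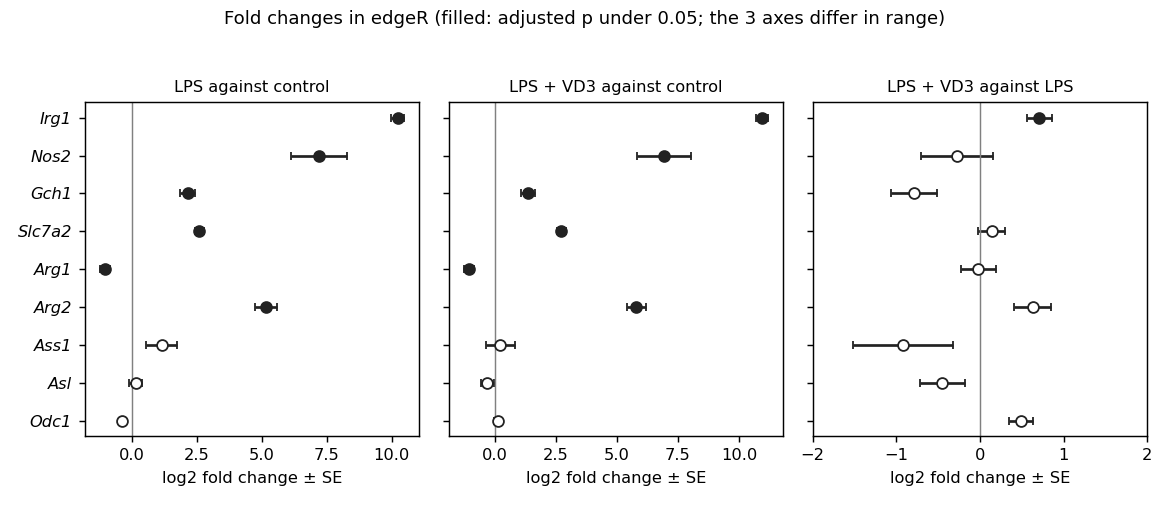
Log2 fold change of each of the 9 genes in the 3 comparisons, with bars of 1 SE and a separate axis range in each panel; filled points have an adjusted p under 0.05. In LPS + VD3 against LPS the 1 filled point is Irg1 at 0.71, and Gch1 lies on the other side of 0 at -0.79, unfilled. The Nos2 points against control depend on the prior count, since Nos2 had 0 counts there.

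Slc7a2, the cationic amino acid carrier, was among the most abundant transcripts of the stimulated cells. It had 9231 and 9897 CPM in LPS + VD3, 7704 and 9689 CPM in LPS and 1435 and 1446 CPM in control. Both stimulated groups lay far above control, and they overlapped each other. Slc7a2 spans chr8:40862396-40922308 on the plus strand. By CPM, which favours long transcripts, it ranked 5th and 4th among genes in LPS + VD3, 8th and 6th in LPS and 40th and 43rd in control. It took 0.848% and 0.91%, 0.729% and 0.904%, and 0.167% and 0.165% of all counts in those libraries. Scaled to exon length, as for Irg1, it ranked 34th and 34th in LPS + VD3, 44th and 34th in LPS and 224th and 221st in control. It rose 6.64-fold in LPS + VD3 against control (2.73 ± 0.17, adjusted p = 1.55e-06) and 6.04-fold in LPS against control (2.59 ± 0.17, adjusted p = 2.22e-06). The difference that VD3 made was 0.14 ± 0.16 (95% interval -0.22 to 0.49, adjusted p = 0.636). A long noncoding gene, Gm26584, overlaps Slc7a2 exons over 635 bp, and the sources used here do not say whether counting used strand.

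Other arginine carriers and sensors moved in both directions. Of all tested genes, 3.83% were called in LPS + VD3 against LPS, 31.8% in LPS against control and 35% in LPS + VD3 against control. Of 8 tested besides Slc7a2, 0 were called in LPS + VD3 against LPS by edgeR or DESeq2 (2 had an unadjusted p under 0.05 in edgeR), 1 was higher and 3 were lower in LPS against control, and 3 were higher and 3 lower in LPS + VD3 against control. Slc3a2, the heavy chain that pairs with several amino acid carriers, had 867 and 932 CPM in LPS + VD3, 1177 and 916 in LPS and 200 and 190 in control (2.43 ± 0.17 in LPS against control, adjusted p = 3.15e-06). Its partner in arginine export, Slc7a7, fell by 1.01 ± 0.21 on the log2 scale in LPS against control (adjusted p = 0.00436), with 14.4 and 15.7 CPM in LPS + VD3, 16.8 and 12.5 in LPS and 30.5 and 28.8 in control. Slc38a9, the lysosomal arginine sensor, fell by 1.06 ± 0.23 in LPS against control (adjusted p = 0.00486), a call lost without control 1 (0.0876). Gatsl2, of the family of cytosolic arginine sensors, had 1.64 to 3.84 CPM in the stimulated libraries and 6.51 and 6.73 in control, and its call in LPS against control (-1.26 ± 0.39, adjusted p = 0.0331) was lost in 8 of 14 alternatives. Slc7a1, the housekeeping arginine carrier, was at 87.9 and 94.7 CPM in LPS + VD3, 70.6 and 63.5 in LPS and 66.5 and 60.4 in control, and was called in LPS + VD3 against control (0.53 ± 0.16, adjusted p = 0.026). Its difference between LPS + VD3 and LPS was 0.45 (adjusted p = 0.147).

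The 2 arginases went opposite ways. Arg1, the cytosolic enzyme, was at 16.7 and 20.5 CPM in LPS + VD3, 18.5 and 19.4 CPM in LPS and 35.5 and 42.5 CPM in control. Arg2, the mitochondrial enzyme, was at 20.5 and 18.9 CPM in LPS + VD3, 14.4 and 11.1 CPM in LPS and 0.343 and 0.321 CPM in control. For both genes the stimulated libraries stood apart from control. Arg1 spans chr10:24915221-24927484 on the minus strand and Arg2 chr12:79130777-79156301 on the plus strand. Arg1 fell by 1.06 ± 0.20 on the log2 scale in LPS + VD3 against control (adjusted p = 0.00224) and by 1.04 ± 0.20 in LPS against control (adjusted p = 0.00265, and 0.0521 without control 2). Arg2 had 4 counts over the control group, so its rise is given as a ratio of counts scaled to library size: 59.5 (95% interval 22.8 to 220, counting error only) in LPS + VD3 against control and 38.4 (14.6 to 143) in LPS against control, with adjusted p of 2.19e-06 and 7.72e-06.

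With VD3 added to LPS, Arg1 differed by -0.02 ± 0.21 on the log2 scale (95% interval -0.49 to 0.45, adjusted p = 0.959). Arg2 was higher in both LPS + VD3 libraries than in either LPS library, by 0.63 ± 0.22 (95% interval 0.13 to 1.13), but did not pass the adjusted threshold (adjusted p = 0.147, range 0.08 to 0.478 over 14 alternatives). Exons of Arg2 overlap those of Vti1b, a vesicle fusion gene on the opposite strand, over 285 bp or 19.96% of the Arg2 exon length. Whether reads from Vti1b entered the Arg2 counts was not tested. Vti1b had between 322 and 373 counts in every library, against 2 and 2 for Arg2 in control, and its levels of 68.7 and 74.2 CPM in LPS + VD3, 66.1 and 65.3 in LPS and 61.2 and 58.5 in control differed far less between groups than those of Arg2.

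The make-up of the arginase transcripts differed between stimulated and control cells. Scaled to exon length, Arg1 made up 34.3% and 41% of the summed arginase level in LPS + VD3, 45.2% and 52.8% in LPS and 98.5% and 98.8% in control. Scaled to the longest transcript of each gene the group means were 47.7% in LPS + VD3, 59.1% in LPS and 99.1% in control, so which arginase was ahead in LPS depended on the length used. By raw counts the Arg1 share was 44.9% (Wilson 95% interval 37.8 to 52.3) and 52% (45.1 to 58.9) in LPS + VD3, 56.2% (48.5 to 63.7) and 63.6% (55.7 to 70.8) in LPS, and 99% (96.6 to 99.7) and 99.3% (97.3 to 99.8) in control.

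**Figure D3:**
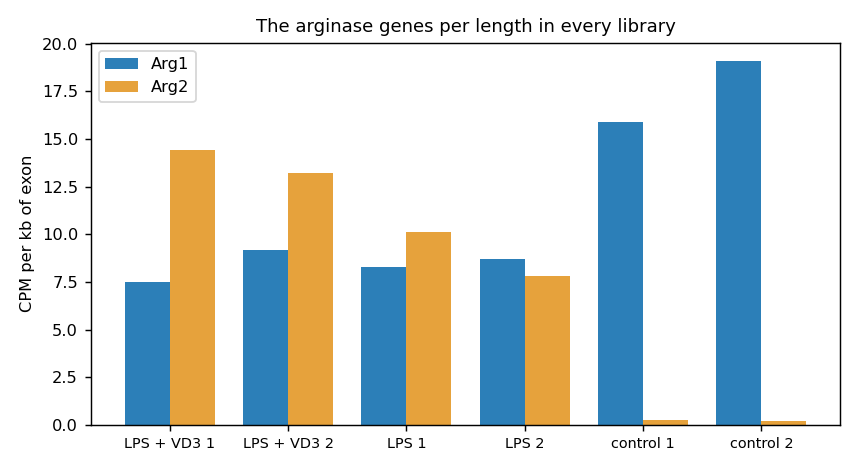
Arg1 and Arg2 in every library as bars, in CPM per kilobase of exon, with LPS + VD3 left of LPS and control. Arg1 is at 7.52 and 9.2 in LPS + VD3 against 15.9 and 19.1 in control, and Arg2 at 14.4 and 13.2 in LPS + VD3 against 0.24 and 0.224 in control.

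Other enzymes of arginine, ornithine and proline were lower where they were called. Over all tested genes 3.83% were called in LPS + VD3 against LPS, 31.8% in LPS against control and 35% in LPS + VD3 against control. Of 10 tested besides the members, 0 were called in LPS + VD3 against LPS (0 also by DESeq2 or at an unadjusted p under 0.05 in edgeR), 1 was called, lower, in LPS against control, and 4 were called, each lower, in LPS + VD3 against control (median log2 fold change -0.45, -0.33 and -0.74). Aldh18a1, which starts proline and ornithine synthesis from glutamate, had 15.9 and 15.3 CPM in LPS + VD3, 18.1 and 16.4 in LPS and 48.8 and 40.9 in control. It fell in both comparisons with control, by 1.52 ± 0.19 with LPS + VD3 and by 1.38 ± 0.19 with LPS (adjusted p = 0.000198 and 0.000354). The urea cycle genes Cps1 and Otc had no counts in any library.

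Of the citrulline-recycling enzymes, Ass1 had the least stable values among the 9 genes. It was at 123 and 22.9 CPM in LPS + VD3, 153 and 124 CPM in LPS and 89.4 and 35.4 CPM in control. The LPS libraries were above all others, but the LPS + VD3 pair spanned both control values. Ass1 spans chr2:31470207-31520672 on the plus strand. None of its comparisons passed: the log2 difference was -0.92 ± 0.60 in LPS + VD3 against LPS (95% interval -2.26 to 0.41, adjusted p = 0.378), 1.15 ± 0.60 in LPS against control (adjusted p = 0.176) and 0.23 ± 0.60 in LPS + VD3 against control (adjusted p = 0.798).

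Most counts of the Ass1 sequence went to a near copy. Gm5424, which RefSeq lists as a transcribed pseudogene, aligned to the Ass1 transcript over 1240 bp at 99.5% identity, so the split of reads between both is uncertain. Gm5424 was at 479 and 587 CPM in LPS + VD3, 828 and 611 CPM in LPS and 210 and 231 CPM in control, above Ass1 in every library. Ass1 made up 20.5% (Wilson 95% interval 19 to 22) and 3.76% (3.14 to 4.49) of the pair's counts in LPS + VD3, 15.6% and 16.9% in LPS, and 29.9% (27.8 to 32.1) and 13.3% (11.7 to 15) in control. The share thus differed between libraries of 1 group by more than counting error.

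Summed, the pair was steadier. Ass1 plus Gm5424 came to 602 and 610 CPM in LPS + VD3, 981 and 735 CPM in LPS and 299 and 266 CPM in control, with no overlap between groups. In this sum, which was formed after the values were seen, the log2 fold change was 1.10 ± 0.17 in LPS + VD3 against control (adjusted p = 0.000661) and 1.60 ± 0.17 in LPS against control (adjusted p = 6.07e-05). Between LPS + VD3 and LPS it was -0.50 ± 0.17 (adjusted p = 0.131).

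**Figure D4:**
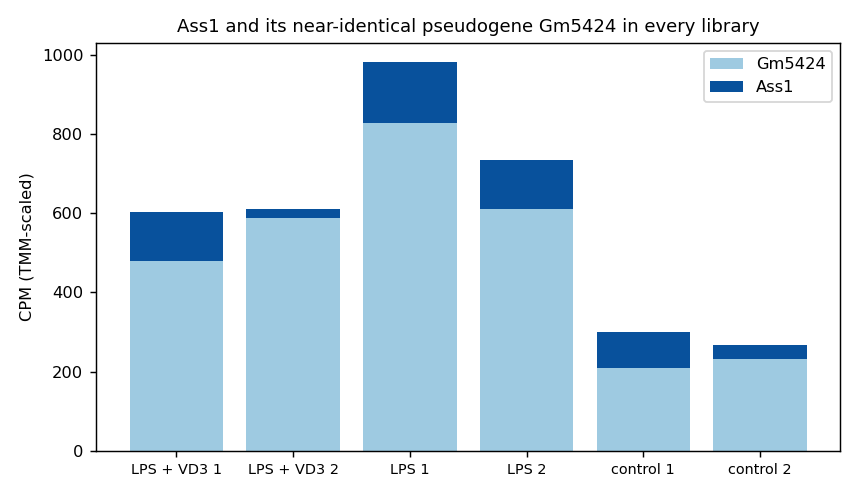
Ass1 stacked on its near copy Gm5424 in every library, in TMM-scaled CPM, with LPS + VD3 left of LPS and control; the full bar is their sum. The Ass1 segments of the 2 LPS + VD3 libraries are 123 and 22.9, while the full bars reach 602 and 610.

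Asl, the next enzyme after Ass1, was at 20.5 and 16.7 CPM in LPS + VD3, 32.2 and 18.6 CPM in LPS and 25 and 21 CPM in control. LPS overlapped both other groups, and LPS + VD3 lay just below control. Asl spans chr5:130011258-130029247 on the minus strand. The log2 difference was -0.45 ± 0.27 in LPS + VD3 against LPS (95% interval -1.06 to 0.16, adjusted p = 0.35) and 0.14 ± 0.26 in LPS against control (adjusted p = 0.716), and it was -0.30 ± 0.27 in LPS + VD3 against control (adjusted p = 0.409). LPS 1 lay above the other 5 libraries. The difference between LPS + VD3 and LPS was -0.00 without LPS 1 (adjusted p = 0.998) and -0.79 without LPS 2 (adjusted p = 0.0118), the ends of its range over 14 alternatives.

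Odc1, which makes putrescine from the ornithine that arginases release, was at 192 and 178 CPM in LPS + VD3, 131 and 132 CPM in LPS and 170 and 170 CPM in control. The LPS libraries were the lowest and the LPS + VD3 libraries the highest, without overlap between any groups. Odc1 spans chr12:17544794-17551505 on the plus strand. None of these differences passed over all genes: 0.49 ± 0.14 in LPS + VD3 against LPS (95% interval 0.18 to 0.81, adjusted p = 0.095), -0.37 ± 0.14 in LPS against control (adjusted p = 0.0736) and 0.12 ± 0.14 in LPS + VD3 against control (adjusted p = 0.528). Both comparisons with LPS lay close to the threshold: with GC offsets the adjusted p was 0.0131 for LPS + VD3 against LPS and 0.0232 for LPS against control, and without LPS 2 it was 0.0125 and 0.0338. It reached 0.341 without LPS + VD3 2 for LPS + VD3 against LPS. Scaling by library size alone, which moved the median of all genes by -0.295 in LPS against control, gave -0.67 there (adjusted p = 0.00414). Of 14 other genes with similar sequence, Gm15645 and AW146154 were in the count table, at 12 to 48 counts per library, and adding them to Odc1 left the difference between LPS + VD3 and LPS at 0.49 (adjusted p = 0.0914).

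Among 15 other tested polyamine genes, 1 was called, higher, in LPS + VD3 against LPS, where 3.83% of all tested genes were called. In LPS against control 2 were higher and 2 lower, where 31.8% of all genes were called. In LPS + VD3 against control 2 were higher and 4 lower, where 35% of all genes were called. Smox, spermine oxidase, which turns spermine back to spermidine, had 37.1 and 33.4 CPM in LPS + VD3, 15.2 and 10.1 in LPS and 10.6 and 11.5 in control. It rose by 1.48 ± 0.23 in LPS + VD3 against LPS (adjusted p = 0.00711), and the call was lost without LPS + VD3 1 (0.101) or LPS + VD3 2 (0.103). In LPS against control its log2 fold change was 0.19 (adjusted p = 0.605). Sms, spermine synthase, rose by 0.55 ± 0.16 and Dhps, which uses spermidine to modify a translation factor, by 0.89 ± 0.28 in LPS against control (adjusted p = 0.0256 and 0.035), calls lost in 4 and 5 alternatives. Mtap, which salvages the methylthioadenosine released by polyamine synthesis, fell by 0.81 ± 0.18 in LPS against control (adjusted p = 0.00616, and 0.126 without control 2). Amd2, an S-adenosylmethionine decarboxylase, fell by 1.07 ± 0.18 in that comparison (adjusted p = 0.00125), but Amd1, its close relative, was listed at 0 in every library, so the count may mix the 2 genes.

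Most of the listed transcription factors known to act on Nos2, Irg1 or Arg1 were called in the comparisons with control. The share over all tested genes was 31.8% in LPS against control, 35% in LPS + VD3 against control and 3.83% in LPS + VD3 against LPS. This list, like the others, was chosen with earlier results of these data known. Of 12 tested, 7 were higher and 3 lower in LPS against control, 7 higher and 2 lower in LPS + VD3 against control, and 1 higher and 1 lower in LPS + VD3 against LPS. Hif1a, the oxygen-sensitive factor that can act on Nos2, had 958 and 1213 CPM in LPS + VD3, 234 and 380 in LPS and 162 and 187 in control (1.82 ± 0.23 in LPS + VD3 against LPS, adjusted p = 0.00227, and 0.0789 without LPS + VD3 2). Irf1, an interferon-linked factor that acts on Nos2, had 26.8 and 24.5 CPM in LPS + VD3, 67.3 and 52.8 in LPS and 13.7 and 15.2 in control. It was higher in LPS than in control (2.05 ± 0.20, adjusted p = 3.32e-05) and lower in LPS + VD3 than in LPS (-1.23 ± 0.19, adjusted p = 0.00712), the second call being lost without either LPS + VD3 library (0.0913 and 0.158). The NF-kB subunits Nfkb1 and Rela rose by 2.96 ± 0.15 and 1.78 ± 0.21 in LPS against control (adjusted p = 3.69e-07 and 0.000121). Nfkb1 was at 946 and 888 CPM in LPS + VD3 and 949 and 931 in LPS, a log2 difference of -0.04 ± 0.14 (adjusted p = 0.902). Klf4, a factor linked to Arg1 in alternatively activated macrophages, had 1.67 and 0.597 CPM in LPS + VD3, 2.26 and 2.23 in LPS and 103 and 120 in control, and fell by 5.62 ± 0.28 in LPS against control (adjusted p = 3.54e-07). Irf8, which acts with Irf1 on Nos2, fell there by 1.48 ± 0.20 (adjusted p = 0.000308).

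**Figure D5:**
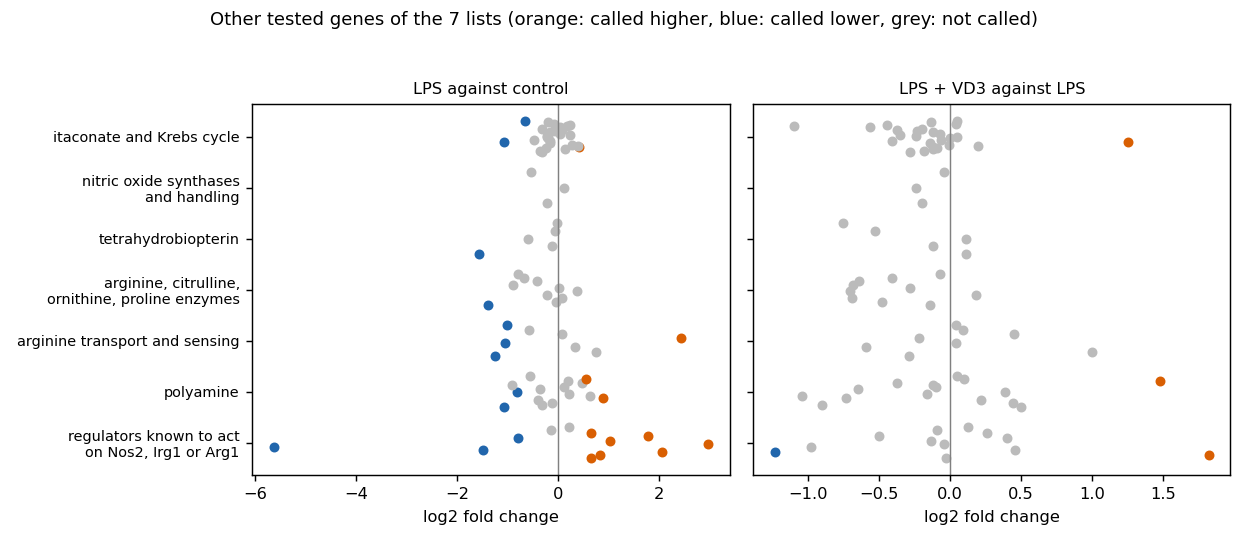
Log2 fold change of the tested genes of the 7 lists without the 9 members, 1 point a gene, in LPS against control and in LPS + VD3 against LPS on separate axis ranges; orange points were called higher, blue points lower and grey points not at all. In LPS + VD3 against LPS 3 of 79 genes were called higher and 1 lower, and in LPS against control 11 higher and 12 lower. Over all tested genes 2.25% were higher and 1.59% lower in the former comparison, and 15.7% and 16.2% in the latter.

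The levels of the 9 genes could be ordered after scaling to exon length. In LPS + VD3 libraries, in CPM per kilobase, Irg1 led at 1790 and 2098, followed by Slc7a2 at 1011 and 1083 and, far below, by Odc1 at 56.4 and 52.2. Ass1 at 51.1 and 9.48 overlapped the next genes in that order, Arg2 at 14.4 and 13.2 and Gch1 at 14 and 9.9, which overlapped each other. The Ass1 values leave out its near copy Gm5424, which held most counts of the pair, so the place of Ass1 is uncertain. Arg1 at 7.52 and 9.2, Asl at 4.25 and 3.46 and Nos2 at 0.475 and 0.812 came last, without overlap. The lower part of this order depended on the length used: scaled to the longest transcript, Gch1 at 24.9 and 17.6 lay above Arg2 at 14.4 and 13.2, and Arg1 at 11.3 and 13.9 overlapped Arg2. In LPS the same pair led, Irg1 at 1246 and 1134 and Slc7a2 at 843 and 1061. In control Slc7a2 led at 157 and 158, followed by Odc1 at 50 and 49.8. Ass1 at 37 and 14.7 and Arg1 at 15.9 and 19.1 came next and overlapped. Irg1 at 0.98 and 0.978 was above Arg2 at 0.24 and 0.224 and Nos2 at 0.

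Genes with the most similar profile over the 6 libraries were found by the root mean square distance of centred log2 CPM among 9065 genes, each point being a library and all genes sharing depth and groups. A prior count of 2 was added before the log. It shrinks the differences of genes near 0 in control, so the distances of Nos2, Arg2 and Irg1 depend on it. Cxcl10, a chemokine, was nearest to Irg1 (distance 0.35, r = 0.997), followed by Tnfsf15 (0.44) and Ifit1 (0.47). Cxcl10 was at 689 and 672 CPM in LPS + VD3, 868 and 605 in LPS and 0.171 and 0.16 in control, with LPS + VD3 values inside the LPS range, where those of Irg1 lay above it. Tnfaip3, which encodes the NF-kB inhibitor A20, was nearest to Arg2 (0.22), Zbp1 to Nos2 (0.17), Pvrl2 to Gch1 (0.11) and Car13 to Slc7a2 (0.06). Zbp1 had 8.91 and 8.33 CPM in control, where Nos2 had 0 counts, so their fold changes against control are not alike. Snx2 was nearest to Arg1 (0.07), Mettl1 to Odc1 (0.02) and Mpdu1 to Asl (0.04). The nearest gene to Ass1, Bloc1s4, was further away than any other member's nearest gene (0.55).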

How the data were processed

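RNA-seq libraries of mRNA were made with KAPA mRNA HyperPrep from RNeasy Micro RNA, per the labels' protocols. TopHat2, edgeR and the mm10 build are listed in the submitters' processing notes, while the counting program, annotation and strand setting were not given in the sources used here. Deposited values are whole-number read counts per gene, not normalized; the authors' deposited normalized table was not used. The test was run in R 4.3.3 with edgeR 4.0.16. Low genes were dropped by filterByExpr (minimum count 10, total 15), and the rest were scaled by TMM and fitted with 3 group means over all 6 libraries (quasi-likelihood test, two-sided). P-values were adjusted by Benjamini-Hochberg over 10724 genes at 0.05. With 2 libraries a group, 3 residual degrees of freedom joined 7.01 prior ones. The CPM values are TMM-scaled. Levels per kilobase used the exon union of a GENCODE annotation of mm10, and similar transcripts were aligned with blastn 2.17.0 (90% identity, 250 bp).

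The script was tested on simulated data. Alternatives were other scalings, DESeq2 1.42.0, no low-count filter, compared libraries only, GC offsets, a replicate block and leaving out each library. Named genes were the 9 members, up to 5 called genes with the smallest p of each list in LPS against control and in LPS + VD3 against LPS, and the 3 nearest profiles of each member; Acly, Idh3a, Dld, Pts, Slc7a1, Nos1, Nos3, Cps1, Otc, Adh5, Nosip, Nostrin, Amd1 and the similar or overlapping genes were named after their values were seen. The members and gene lists were chosen with earlier results of these data known. Some genes of the lists are not reported here by name. Intervals on counts and the limit for 0 counts cover counting error only.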

Additional observations from a re-analysis of the deposited data

How the results depend on the processing

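Over 378 combinations of member, comparison and setting (no summed near copies), 342 kept direction and side of the threshold, 8 lost the call, 16 gained one and 12 changed sign; the causes were not tested. Genes called in LPS + VD3 against LPS (411) numbered 169 without a filter, 252 with compared libraries only, 780 with GC offsets and 54 to 3653 when a library was left out (96 without LPS + VD3 1, 54 without LPS + VD3 2, 3653 without LPS 2, 257 without control 1, 254 without control 2). Leaving out a library gave 1962 to 4798 genes in LPS against control (3411; 1992 without control 1, 1962 without control 2) and 2141 to 5350 in LPS + VD3 against control (3749; 2141 without control 1, 2162 without control 2, 2155 without LPS + VD3 2). Members called in LPS + VD3 against LPS (1) numbered 0 without a filter and 0 with compared libraries only (4 each at an unadjusted p under 0.05 in edgeR, and 1 by DESeq2), 2 with GC offsets and 0 to 4 when a library was left out (4 without LPS 2, 1 without LPS 1, 0 without any of the others). Genes of the 7 lists called, members included, numbered 9 with GC offsets and 1 to 30 when a library was left out in LPS + VD3 against LPS (5; 30 without LPS 2), 17 to 41 in LPS against control (29), and 19 to 54 in LPS + VD3 against control (37), where library size alone and compared libraries only gave 56 each. Library size alone shifted log2 fold changes by a median of -0.327 in LPS + VD3 against control and -0.295 in LPS against control, and 25.9% (50.5%) and 26.2% (49.2%) of the called genes were then higher. Arg1's share of arginase per kilobase by longest transcript was 47.7% (37.6%) in LPS + VD3, 59.1% (49%) in LPS and 99.1% (98.7%) in control.

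Signs changed as follows. With library size alone Asl was -0.15 in LPS against control, and in LPS + VD3 against control Ass1 was -0.11 and Odc1 -0.20. Slc7a2 was -0.03 with GC offsets in LPS + VD3 against LPS. Leaving out a library gave, in LPS + VD3 against LPS, -0.02 to 0.31 for Slc7a2, -0.19 to 0.11 for Arg1 and -0.73 to 0.05 for Nos2, in LPS against control -0.30 to 0.49 for Asl, and in LPS + VD3 against control -1.44 to 1.04 for Ass1. None of these was called as deposited or where the sign changed.

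The labels name each LPS + VD3 library by the number of an LPS library plus VD3, which may mark a pair. They do not say that same-numbered libraries share animals or cultures, and with 2 numbers the data cannot show it. Same-numbered deviations correlated at 0.196 between LPS + VD3 and LPS, 0.172 between LPS and control and 0.089 between LPS + VD3 and control. With a replicate block, 1152 genes, 4 members and 12 listed genes were called in LPS + VD3 against LPS. These members were Irg1, Odc1 (0.49, adjusted p = 0.0433), Gch1 (-0.76, adjusted p = 0.0115) and Ass1 (-1.28, adjusted p = 0.0265). With the block and GC offsets, 1277 genes, 3 members and 12 listed genes were called there and Slc7a2 was -0.03; in LPS against control 47 listed genes were called. In LPS against control the block also called Ass1 (1.35, adjusted p = 0.00474).

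Counts under about 20 per library limit Nos2 throughout and Irg1 and Arg2 in control cells.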
